A study of Mus musculus with 8 samples.

Results

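The clustered histone genes are the genes for the linker histone H1 and the core histones H2A, H2B, H3 and H4 that lie together in a few gene clusters. They were taken as every gene of the deposited FPKM table whose symbol starts with Hist1h, Hist2h, Hist3h or Hist4h, which gave 67 of 23293 mouse genes: 6 for H1, 18 for H2A, 18 for H2B, 12 for H3 and 13 for H4. In the mouse reference annotation, 53 lie on chromosome 13, 10 on chromosome 3, 3 on chromosome 11 and 1 on chromosome 6. FPKM are fragment counts corrected for transcript length and library depth. Of the 67 genes, 58 reached a mean of 1 FPKM over all libraries and were tested, and 9 did not.

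Most of these genes are transcribed in S phase, when new DNA has to be packed, and their transcription depends on Npat, a coactivator that gathers at the histone clusters. Their messenger RNAs usually end in a stem-loop instead of a poly(A) tail. The stem-loop is bound by Slbp, which is needed for processing, export and translation of the messenger. Some members can also give a polyadenylated messenger, mainly in cells that leave the cell cycle. The labels give the molecule sequenced as polyA RNA, and the protocol there names no selection step.

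The RNA came from c-Kit-positive marrow cells, which are mainly immature blood cells, enriched on magnetic beads from individual mice at 4 weeks after PIpC, the inducer of Mx1-cre. There were 8 libraries in 4 groups of 2: control (Smc3 fl/+, a floxed allele, without Mx1-cre), Smc3 del/+ with Mx1-cre, Flt3-ITD with Mx1-cre, and a combined group with Mx1-cre that the genotype label gives as Smc3 fl/del Flt3-ITD and the title as het for Smc3. Smc3 encodes a core subunit of cohesin, and Flt3-ITD is an activating internal tandem duplication of the Flt3 receptor. The series asks how cohesin dose acts in normal and malignant blood formation. Mx1-cre is active in many blood and other cell types, and only the controls lacked it. Each library is called below by its group and its number.

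The end of the messenger is shown first, because it sets these genes apart from most others. In the reference transcripts matched by symbol (GENCODE M21, GRCm38), the letters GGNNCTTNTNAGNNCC were searched on the transcript strand after the coding sequence, and 46 of 67 members held a match, in 8 forms. The most frequent form was in 26 members of the H1, H2A, H2B and H3 types. The H4 genes had arms of their own, and the forms of Hist1h4i and Hist1h4b, whose levels are described below, were among them. The capitals mark the paired arms of the stem and the lower-case letters the loop.
H1, H2A, H2B and H3 form of 26 members: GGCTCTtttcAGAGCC
H1, H2B and H3 form of 6 members: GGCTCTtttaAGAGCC
H4 form of 7 members: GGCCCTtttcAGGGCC
H4 form of 2 members, among them Hist1h4i: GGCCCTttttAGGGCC
H4 form of 2 members, among them Hist1h4b: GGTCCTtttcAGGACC

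Of the 21 members without a match, 18 had at most 60 annotated bases after the coding sequence, so that the window was short. The other 3 were Hist1h2bc, Hist1h2bq and Hist2h2be, with 745, 1611 and 2195 bases. The letters AATAAA, the usual signal for poly(A) addition, were found within the last 50 annotated bases of 14 members. Hist1h2bq and Hist2h2be were among them and Hist1h2bc was not. Where fewer than 50 bases were annotated after the coding sequence, the window reached into it, so that a missing AATAAA says little there.

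Promoters were compared over the window from 250 bases before to 50 bases after each start in the RefSeq table (GRCm38.p6), which held an entry for 61 members. The octamer ATTTGCAT, a site of Oct1, was searched on both strands. It was found in 7 of 18 H2A and 7 of 15 H2B promoters and in none of the H1, H3 and H4 promoters. Among all 27025 genes with a promoter entry, 1.97% held it. The letters CCAAT, bound by NF-Y, were found on either strand in 52 of the 61, against 41.1% of all these genes. Every H1, H2A, H2B and H3 promoter held them, but only 3 of the 12 H4 promoters. The letters TATAAA, on either strand, were found in 35 of the 61, against 15.7% of all. None of these motifs contains another. Promoters of 4 members whose FPKM passed the test are shown, as the 250 bases before the start from RefSeq, with CCAAT, its reverse complement ATTGG, the octamer and TATAAA in capitals.
Hist1h4i (GRCm38.p6 chr13:22041363-22041612, minus strand): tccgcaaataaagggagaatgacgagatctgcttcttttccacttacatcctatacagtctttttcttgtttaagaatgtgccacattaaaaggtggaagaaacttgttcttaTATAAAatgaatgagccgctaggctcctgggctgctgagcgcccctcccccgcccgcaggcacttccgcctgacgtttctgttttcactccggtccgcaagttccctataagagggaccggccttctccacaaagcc
Hist1h4k (GRCm38.p6 chr13:21750554-21750803, minus strand): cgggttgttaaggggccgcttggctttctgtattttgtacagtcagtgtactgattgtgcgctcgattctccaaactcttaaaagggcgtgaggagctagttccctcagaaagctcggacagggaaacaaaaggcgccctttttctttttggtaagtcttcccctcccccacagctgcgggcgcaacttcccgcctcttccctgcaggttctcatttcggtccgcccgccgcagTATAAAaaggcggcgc
Hist1h2ag (GRCm38.p6 chr13:22042950-22043199, minus strand): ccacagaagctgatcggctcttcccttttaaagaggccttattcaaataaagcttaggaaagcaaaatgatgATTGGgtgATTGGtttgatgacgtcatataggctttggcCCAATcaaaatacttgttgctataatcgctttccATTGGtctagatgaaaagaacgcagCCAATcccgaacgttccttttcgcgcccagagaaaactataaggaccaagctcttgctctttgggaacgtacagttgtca
Hist2h2bb (GRCm38.p6 chr3:96269450-96269699, plus strand): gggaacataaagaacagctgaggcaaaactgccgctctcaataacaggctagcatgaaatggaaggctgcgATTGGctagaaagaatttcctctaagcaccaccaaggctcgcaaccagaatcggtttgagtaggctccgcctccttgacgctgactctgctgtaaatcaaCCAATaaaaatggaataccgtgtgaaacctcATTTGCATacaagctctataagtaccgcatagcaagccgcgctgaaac

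The H4 promoters shown held TATAAA and no CCAAT, the H2A promoter held repeated CCAAT letters, and the H2B promoter held an octamer and CCAAT letters. Hist1h4i and Hist1h2ag are close neighbours on chromosome 13. In the reference, 9 divergent pairs of an H2A and an H2B gene had 164 to 281 bases between their starts, Hist1h2ag with Hist1h2bj among them. The promoter windows of such a pair overlap, so that a motif between the starts can count for both genes.

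Several facts of the whole series touch these genes. Smc3 was at 119 and 112 FPKM (control), 135 and 133 (labelled Smc3 del/+), 94.7 and 89.9 (Flt3-ITD) and 103 and 136 FPKM (combined), so that the deletion was not visible as a lower Smc3 level and every direction below refers to libraries as labelled. Xist was between 499.8 and 657 FPKM in controls and the combined group and between 0.140 and 0.936 in the others, a female against a male pattern, so that sex cannot be told apart from genotype in Smc3 del/+ or Flt3-ITD against control or in the combined group against Flt3-ITD. The effects averaged over both backgrounds and the combined group against control are balanced for sex. The combined libraries were the least alike, with a correlation of 0.932 across 10854 genes against 0.975 to 0.981 within the other groups, where genes are not independent. The 7 progenitor markers in the table were detected in all libraries with a summed level of 545 to 728 FPKM. Kit, the selected surface receptor, was at 37.4 to 60.1 FPKM and lower in the combined group than in control (-0.56 ± 0.136, limma adjusted p = 0.0391), and Flt3 was at 3.64 to 14.3 FPKM. Tests used limma on log2(FPKM + 1) over 10854 genes with p-values adjusted by the Benjamini-Hochberg method and a threshold of 0.05. Fold changes on that scale understate changes of low genes, and errors given with them are standard errors.

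The table holds no counts, but among H2A, H2B and H4 members above 0 in at least 6 libraries, 19 (5 H2A, 7 H2B and 7 H4 genes) took values on fixed steps. In every library, the FPKM of these genes were whole multiples of a single step for each type, within 0.02 of a step. In control 1 the step was 0.502 FPKM for H4, 0.296 for H2B and 0.276 for H2A. Summed over the 19 genes there were 1153 and 1859 steps (control), 983 and 1296 (Smc3 del/+), 984 and 1094 (Flt3-ITD) and 658 and 521 steps (combined). The median gene held 19 steps in combined 2 and 94 in control 2. No source used here says what a step stands for. The step was largest in combined 2 for each type, at 0.648 FPKM for H4, 0.394 for H2B and 0.368 for H2A. If the step runs inversely to depth, combined 2 had 0.753 of the depth of control 1, with 0.831 to 0.991 in the rest. That reading was not tested, and the summed steps above are not corrected for it.

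The summed FPKM of all 67 genes were 858 in control 1, 1397 in control 2, 879 and 983 (Smc3 del/+), 927 and 988 (Flt3-ITD) and 623 and 550 (combined). Both combined libraries were below the other 6, and control 2 was far above every other library, including the other control. H4 made up the largest share in each library, from 30.7% in combined 1 to 45.7% in combined 2. Summed H4 was 482 ± 149 FPKM (control), 374 ± 48.5 (Smc3 del/+), 382 ± 22.2 (Flt3-ITD) and 221 ± 42.7 FPKM (combined), as mean ± SD with n = 2 per group. Summed H2A was 274 ± 110, 229 ± 27.2, 235 ± 13.5 and 132 ± 22.2 FPKM in the same order. Summed H2B was 167 ± 43.5, 182 ± 9.48, 169 ± 20.7 and 108 ± 35.8, summed H3 158 ± 67.2, 110 ± 21.3, 135 ± 12.8 and 96.2 ± 38.3, and summed H1 46.9 ± 12.0, 36.8 ± 9.50, 36.1 ± 1.44 and 28.8 ± 2.01 FPKM. In every type the combined group had the lowest mean, but for H3 its higher library, at 123 FPKM, lay above 1 control library, at 110 FPKM.

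**Figure D1:**
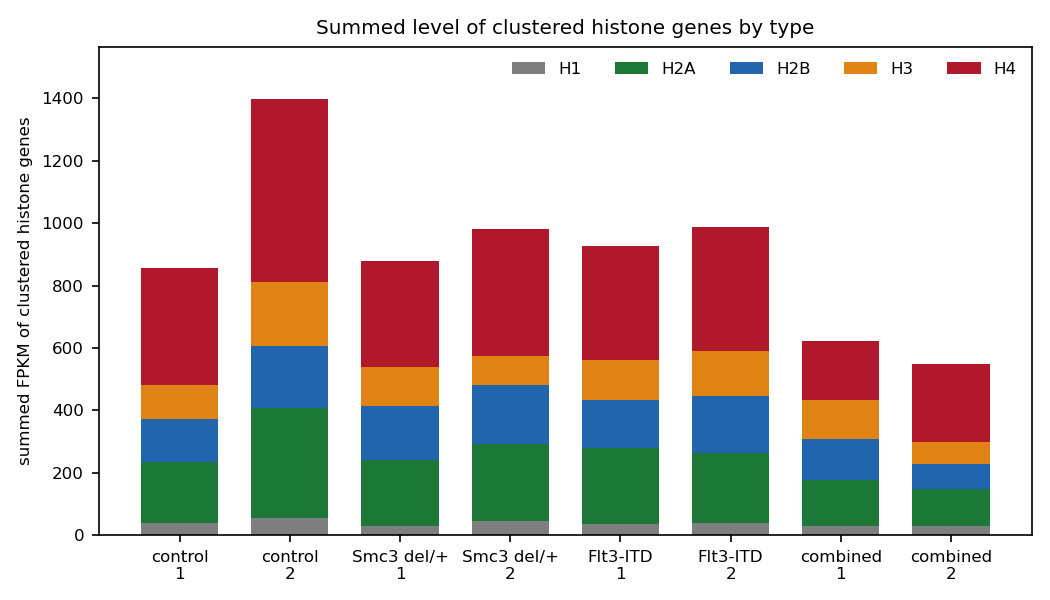
Summed FPKM of the clustered histone genes in each of the 8 libraries, with the 5 types stacked in colours (linear axis from 0). Control 2 stands at 1397 FPKM above all others, and both combined libraries, at 623 and 550 FPKM, are below the other 6.

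Single members differed in which library was highest. Control 2 alone was highest for 31 of 67 members and Smc3 del/+ 2 for 11. Not counting ties, combined 2 was lowest for 28 and combined 1 for 17, and each combined library was highest for 3. Between the 2 controls, 50 of 58 tested members were higher in control 2, with a median difference of 0.65 on the log2 scale, against -0.00 over all 10854 genes. The median difference between replicates was 0.22 (Smc3 del/+), 0.11 (Flt3-ITD) and -0.21 (combined). All 12 tested H3 and all 12 tested H4 genes were higher in control 2 than in control 1. The difference between the 2 control mice was thus of the size of the group differences described below, whose medians lie between -0.16 and -0.82.

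**Figure D2:**
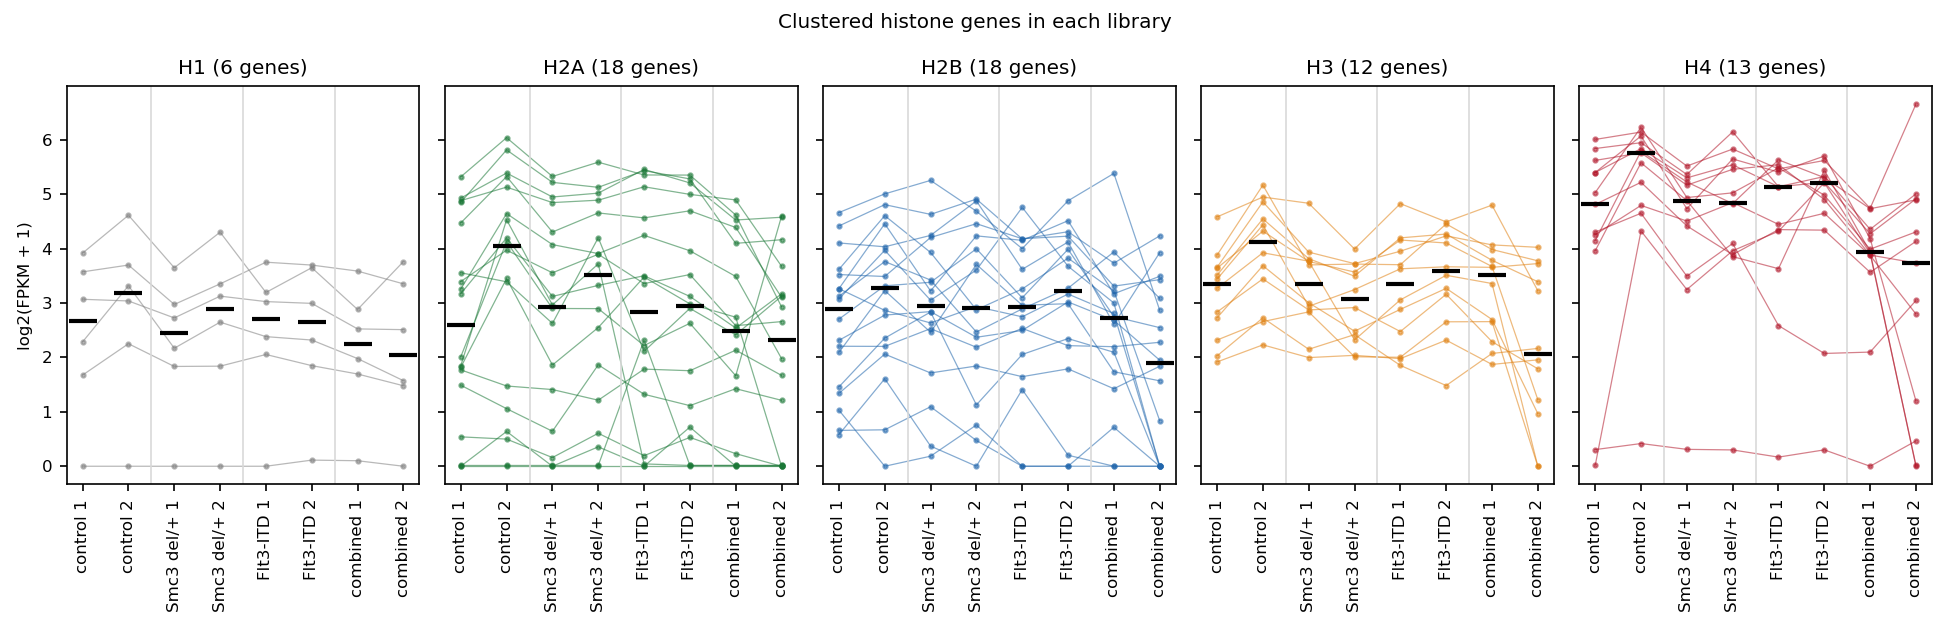
Level of each of the 67 genes as log2(FPKM + 1) in the 8 libraries, in a panel for each type. Thin lines join values of the same gene, and black dashes are the median of the type in that library. In all 5 types the median is highest in control 2 and lowest in combined 2.

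RNAs known to lack poly(A) tails were set beside these values. Rpph1, the RNA of ribonuclease P, was at 709 and 1204 FPKM (control), 696 and 901 (Smc3 del/+), 748 and 972 (Flt3-ITD) and 591 and 664 FPKM (combined). Rmrp, the RNA of a related enzyme, was at 140 and 219, 153 and 186, 151 and 265, and 88.3 and 197 FPKM. Both were named after their values were seen. Rpph1, like the summed histone genes, was highest in control 2 and lowest in the combined libraries. Rmrp did not follow that order: it was highest in Flt3-ITD 2, at 265 FPKM. In combined 2, at 197 FPKM, it was above control 1, both Smc3 del/+ libraries and Flt3-ITD 1. The whole list of such RNAs held 121 genes of the table, of which 98 were at 0 in every library and 22 were tested. Its summed FPKM was 905 to 2323 in 7 libraries and 30175 in control 1. For the combined group against control, 2 of the 22 were lower and none higher, with a median of -0.78. Among all genes, 6.38% were lower and 5.41% higher. The part of these RNAs or of their capture in the histone result was not tested.

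Members known to give polyadenylated messengers did not show the high value of control 2. The 7 genes listed as such summed to 29.3 and 28.5 FPKM (control), 32.2 and 36.4 (Smc3 del/+), 36.9 and 36.0 (Flt3-ITD) and 27.5 and 25.4 FPKM (combined). Hist1h1c, a linker histone gene, was at 10.9 and 12.0, 6.85 and 9.21, 12.5 and 12.0, and 11.01 and 9.21 FPKM in that order of groups. Hist2h2be was between 3.55 and 4.79 FPKM in all 8 libraries and Hist3h2a between 1.32 and 3.39. Hist3h2ba, Hist3h2bb-ps and Hist4h4 stayed under the filter, at 0 to 1.13 FPKM. Hist1h2bc, the remaining gene of that list, is described with the H2B genes. By the letters of the annotated end, the 10 tested members with AATAAA differed between the controls by a median of 0.39 and the 48 without by 0.67. Several of the 10 were low rows, whose differences are understated on the log2 scale used, and the part of level was not tested.

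Not every row could be read as a gene of its own. Hist1h2aa, known from testis, was at 0 in all 8 libraries, Hist1h1t, also known from testis, was above 0 in 2 libraries only, at 0.0813 and 0.0728 FPKM, and Hist1h2ba, the third gene of that kind, was at 0 to 6.13 FPKM with no test passed. In all, 15 members were at 0 in at least 1 library. There were 14 members at 0 in combined 2 against 3 to 5 in each other library. Combined 2 also had the most zeros over all 23293 mouse genes, 11076 against 8878 to 9907 in the other libraries. Coding sequences of 47 members were at least 95% identical to one of the same length in GENCODE M21, and sequences of unequal length were not compared. Identical pairs numbered 4: Hist1h2ao and Hist1h2ap, Hist2h2aa1 and Hist2h2aa2, Hist1h4m and Hist1h4n, Hist2h3c1 and Hist2h3c2. The value 0.01 FPKM, a floor of the table, appeared in 3 members, Hist1h2ap, Hist1h4n and Hist2h2aa2, each of them in an identical pair. No source used here says how the fragments of such pairs were divided, and values of these 8 genes are uncertain apart from their sums. Among the members called in the fits with all 8 libraries, Hist2h2bb, at 89.4%, was the only one without an equally long copy of at least 95% identity.

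Against control, the libraries labelled Smc3 del/+ showed no called member. None of the 58 passed, against 0.00921% of all genes tested. Under an unadjusted limma p of 0.05 were 4 of the 58, against 494 of all 10854 genes. The median log2 fold change of the members was -0.18 against 0.00 for all genes. Both Smc3 del/+ libraries were below both controls for 9 members, against 23.2% of all genes, and above them for 3, against 24.2%. Flt3-ITD against control gave 1 member higher (Hist1h2bc) and 2 lower (Hist1h4i and Hist1h2ap), against 8.51% higher and 9.5% lower among all genes, with a median of -0.16 against -0.01. The 3 called members are 5.17% of the 58, fewer than the 18% called among all genes in either direction. Both Flt3-ITD libraries were below both controls for 12 members, against 35.2% of all genes, and above them for 2, against 34.3%.

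The combined group against control gave 10 members lower and none higher, against 6.38% lower and 5.41% higher among all genes. The 10 are 17.2% of the 58 tested: 6 of 12 H4 genes, 4 of 14 H2A genes and no H1, H2B or H3 gene. The log2 fold change was negative for 53 of 58 members, with a median of -0.82 against -0.01 for all genes. Both combined libraries were below both controls for 29 of 58 members, against 26.8% of all genes, and above them for none, against 25.8%. Medians by type were -1.20 for H4, -0.95 for H2A, -0.70 for H3, -0.63 for H2B and -0.54 for H1.

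The combined group against Flt3-ITD gave no called member in limma, against 0.286% of all genes (0.0461% lower and 0.24% higher). Under an unadjusted limma p of 0.05 were 17 of 58 members, against 1196 of all 10854 genes. The median was -0.65 against 0.00 for all genes, and 49 of 58 members had a negative value. Both combined libraries were below both Flt3-ITD libraries for 32 of 58 members, or 55.2%, against 16.8% of all genes, and above them for 1, against 17.1%. The interaction, the difference between the Smc3 effect with and without Flt3-ITD, called no member, against 0.0369% of all genes. There 8 of 58 members were under an unadjusted limma p of 0.05, against 1009 of all 10854 genes. These comparisons share groups: both comparisons of Flt3-ITD carriers with control use the same 2 control libraries. They are therefore given side by side and not as independent evidence.

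Averaged over both backgrounds, the Smc3 deletion called no member and no gene of the table (0% of all genes). Under an unadjusted limma p of 0.05 were 8 of 58 members, against 525 of all 10854 genes. The median of the members was -0.45 against 0.01 for all genes, and 52 of 58 were negative. For no member did the 4 deletion libraries lie entirely below or above the other 4, against 0.783% and 0.912% of all genes. Averaged Flt3-ITD gave 6 members lower and none higher, against 12.8% lower and 10.9% higher among all genes: Hist1h4i, Hist1h4k, Hist1h4b, Hist1h4f, Hist2h2bb and Hist1h2ap. That is 10.3% of the 58, below the 23.8% called among all genes in either direction, with a median of -0.49 against -0.01. The 4 Flt3-ITD carriers lay entirely below the other 4 libraries for 5 members, against 15.1% of all genes, and above them for none, against 12.1%.

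**Figure D3:**
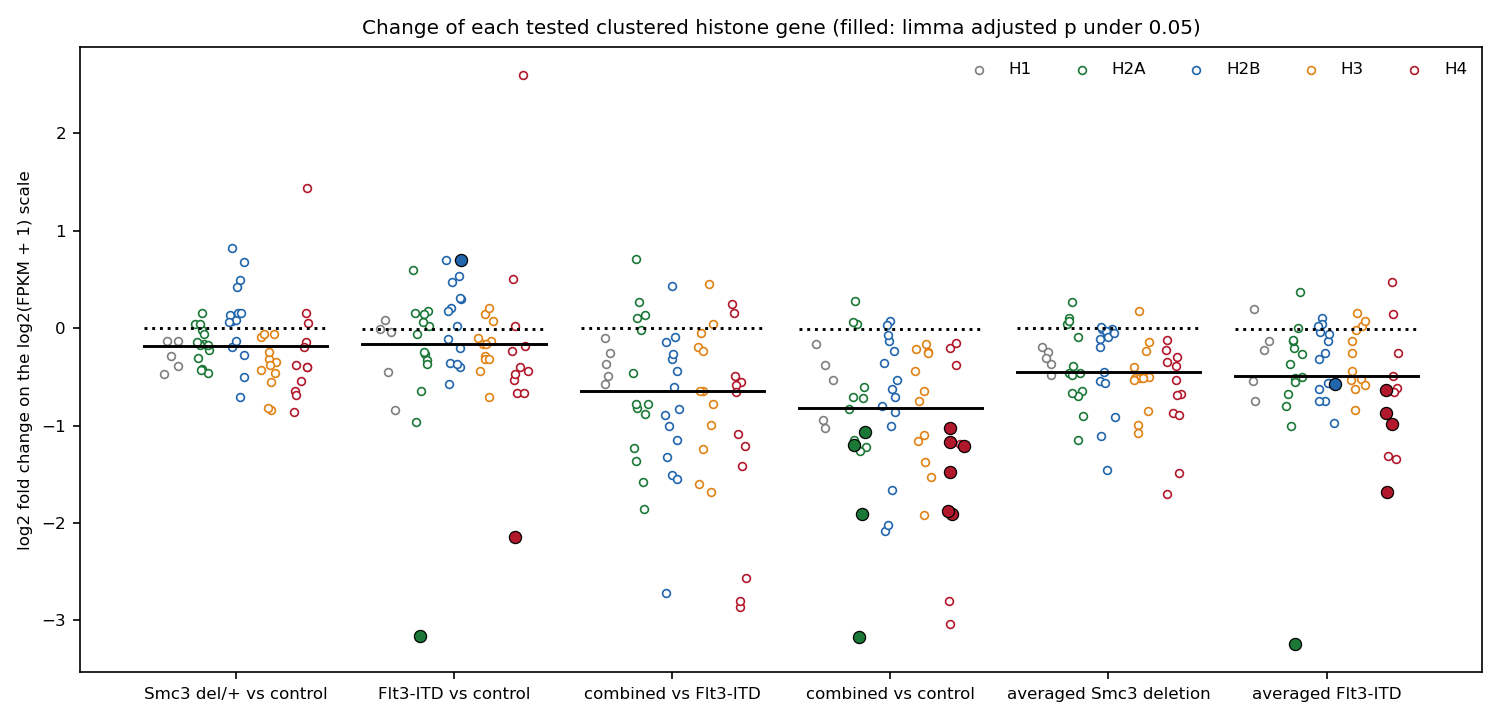
Log2 fold change, on the log2(FPKM + 1) scale, of each of the 58 tested members in 6 comparisons, coloured by type. Filled points have a limma adjusted p under 0.05, solid bars are the median of the members and dotted bars the median of all genes. The combined group against control has the lowest median, -0.82, and the most filled points, 10.

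The H4 genes, all of which encode the same core histone, held 6 of the 10 calls in the combined group against control. Hist1h4i was at 18.7 and 24.1 FPKM (control), 10.3 and 16.1 (Smc3 del/+), 5.002 and 3.21 (Flt3-ITD) and 3.28 and 7.26 FPKM (combined). The 4 libraries of Flt3-ITD carriers were all below the other 4, and the controls were the highest. Hist1h4i fell by 2.15 ± 0.360 in Flt3-ITD against control (limma adjusted p = 0.00901) and by 1.90 ± 0.360 in the combined group against control (adjusted p = 0.0184). It fell by 1.68 ± 0.288 in averaged Flt3-ITD (adjusted p = 0.00575), a call kept in all 18 alternative settings. The call in Flt3-ITD against control was lost without control 1, control 2 or Flt3-ITD 2, and that in the combined group without control 1, control 2 or with only those groups in the fit, at values of -2.32 to -1.89 and -2.08 to -1.73. Its coding sequence was 96.8% identical to the closest one, that of Hist1h4m.

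Hist1h4k was at 48.2 and 53.2 FPKM (control), 34.9 and 42.9 (Smc3 del/+), 45.5 and 28.9 (Flt3-ITD) and 13.7 and 12.3 FPKM (combined). Both combined libraries were far below the other 6, which overlap between Smc3 del/+ and Flt3-ITD. Hist1h4k fell by 1.88 ± 0.221 in the combined group against control (limma adjusted p = 0.00483), and this call was lost in 2 of 19 alternatives, those that left out control 1 or control 2 (-1.95 and -1.81). Against Flt3-ITD the value was -1.41 ± 0.221 (adjusted p = 0.0709) and did not pass, and averaged over backgrounds the Smc3 deletion gave -0.90 ± 0.230 (adjusted p = 0.901). Averaged Flt3-ITD gave -0.99 ± 0.230 (adjusted p = 0.0178), a call made although carriers and others overlap and lost without Smc3 del/+ 1, Smc3 del/+ 2 or Flt3-ITD 2 (-0.96 to -0.82).

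Hist1h4b was at 56.2 and 60.6 FPKM (control), 40.1 and 69.8 (Smc3 del/+), 34.2 and 39.1 (Flt3-ITD) and 19.4 and 31.1 FPKM (combined). All 4 Flt3-ITD carriers were below the other 4, and Hist1h4f showed the same split, at 41.2 and 56.2, 38.4 and 45.5, 34.2 and 36.2, and 18.3 and 29.1 FPKM. In averaged Flt3-ITD, Hist1h4b fell by 0.87 ± 0.206 (limma adjusted p = 0.0188) and Hist1h4f by 0.63 ± 0.174 (adjusted p = 0.0309). Compared with control, both fell in the combined group, by 1.21 ± 0.290 (adjusted p = 0.0369) and 1.02 ± 0.239 (adjusted p = 0.0345). The averaged call of Hist1h4b was lost without control 2 or Flt3-ITD 1 (-0.89 and -0.87), and that of Hist1h4f without filter and without any 1 of control 2 or the Smc3 del/+ and Flt3-ITD libraries (-0.69 to -0.55). In the combined group both were lost without either control or either Flt3-ITD library, at -1.27 to -1.16 and -1.24 to -0.81 over all settings that ended the call.

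Hist1h4c and Hist1h4m also passed in the combined group against control. Hist1h4c was at 31.6 and 74.0, 29.6 and 31.5, 43.7 and 30.6, and 14.9 and 18.8 FPKM, and fell by 1.48 ± 0.364 (limma adjusted p = 0.0401). Its value in control 2 was more than those of all other libraries. Hist1h4m was at 27.1 and 36.2, 20.4 and 13.8, 19.4 and 19.2, and 10.8 and 16.5 FPKM and fell by 1.17 ± 0.257 (adjusted p = 0.0295). Summed with its identical copy Hist1h4n, the values were 27.1 and 55.2, 28.8 and 28.4, 38.3 and 55.3, and 24.9 and 16.5 FPKM, and the sum did not pass (-0.90 ± 0.343, adjusted p = 0.134). The call of Hist1h4m was thus not made on the sum. Hist1h4n alone ranged from 0.01 to 36.0 FPKM. Both calls were lost without control 2 or without any 1 of the Smc3 del/+ and Flt3-ITD libraries, at -1.48 to -0.88 for Hist1h4c and -1.37 to -0.96 for Hist1h4m over the settings that ended them.

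The H4 gene with the highest mean was Hist1h4d, at 63.2 and 69.6 FPKM (control), 44.8 and 55.8 (Smc3 del/+), 43.1 and 48.1 (Flt3-ITD) and 25.7 and 99.7 FPKM (combined). The combined libraries were its lowest and its highest, and no comparison passed. Hist1h4a was at 41.2 and 66.1, 25.6 and 49.1, 41.3 and 51.0, and 17.2 and 1.30 FPKM, with -3.04 ± 0.831 in the combined group against control (limma adjusted p = 0.0558). Hist1h4j was at 14.6 and 46.7, 28.5 and 13.4, 11.4 and 42.5, and 14.3 and 0 FPKM, with replicates far apart in every group. In combined 2, Hist1h4d was thus at its highest of all libraries, and Hist1h4a and Hist1h4j were at their lowest. The coding sequences of Hist1h4a and Hist1h4j were 97.4% and 98.4% identical to that of another H4 gene. How fragments were divided among such genes is not known, so that these single values are uncertain.

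Among the H2A genes, Hist1h2ag was at 9.51 and 14.7 FPKM (control), 10.8 and 13.9 (Smc3 del/+), 9.25 and 10.5 (Flt3-ITD) and 4.99 and 5.31 FPKM (combined). Hist1h2ai was at 27.9 and 55.2, 36.2 and 33.9, 42.2 and 37.9, and 16.1 and 16.9 FPKM. In both genes the combined libraries were close to each other and below the other 6. Against control, the combined group had less of both genes: Hist1h2ag fell by 1.06 ± 0.230 (limma adjusted p = 0.0277) and Hist1h2ai by 1.20 ± 0.277 (adjusted p = 0.0333). Hist1h2ad, at 38.9 and 64.7, 39.1 and 47.1, 39.9 and 39.8, and 23.5 and 6.62 FPKM, fell by 1.91 ± 0.490 (adjusted p = 0.0459). The values of the 2 combined libraries were far apart, and its call was lost in 11 of 19 alternatives (-2.26 to -1.55). All 3 calls were lost without control 2 or any 1 of the Smc3 del/+ and Flt3-ITD libraries, at -1.35 to -0.77 for Hist1h2ag and -1.20 to -0.72 for Hist1h2ai over the settings that ended them.

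Hist1h2ap was read beside its identical copy. It was at 2.60 and 22.1 FPKM (control), 6.81 and 12.2 (Smc3 del/+), 0.0303 and 0.01 (Flt3-ITD), and 0.01 FPKM in both combined libraries. It passed as lower in Flt3-ITD against control (-3.16 ± 0.744, limma adjusted p = 0.0275), in the combined group against control (-3.17 ± 0.744, adjusted p = 0.0349) and in averaged Flt3-ITD (-3.24 ± 0.498, adjusted p = 0.00371). Its identical copy Hist1h2ao was at 29.4 and 40.9, 29.9 and 31.4, 42.9 and 35.9, and 22.0 and 22.8 FPKM. The sum of the pair was 32.0 and 63.0 (control), 36.7 and 43.6 (Smc3 del/+), 42.9 and 35.9 (Flt3-ITD) and 22.0 and 22.9 FPKM (combined). For the sum, Flt3-ITD against control was -0.19 ± 0.285 (adjusted p = 0.687), the combined group against control -0.97 ± 0.285 (adjusted p = 0.0684) and averaged Flt3-ITD -0.50 ± 0.217 (adjusted p = 0.129). None of the calls of Hist1h2ap was made on the sum. Its calls against control were also lost without control 2 (-1.82 and -1.83) and without any 1 of the Smc3 del/+ and Flt3-ITD libraries.

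Other abundant H2A genes were Hist1h2ab, at 18.8 to 39.0 FPKM outside the combined group and 19.9 and 7.60 in it, and Hist2h2aa1, at 27.7 to 34.2 outside it and 28.7 and 11.8 in it. No comparison of either passed. H2A rows with low levels included Hist1h2ac and Hist2h2ab, at most 0.522 and 0.647 FPKM in any library.

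Among the H2B genes, Hist1h2bc was at 10.5 and 10.2 FPKM (control), 17.4 and 21.0 (Smc3 del/+), 17.1 and 17.7 (Flt3-ITD) and 8.92 and 9.77 FPKM (combined). Replicates were close, libraries with either alteration alone were above the controls, and libraries with both were below them. It rose by 0.70 ± 0.153 in Flt3-ITD against control (limma adjusted p = 0.0214). In Smc3 del/+ against control the value was 0.83 ± 0.153 (unadjusted p = 0.000764, adjusted p = 0.440), and in the combined group against Flt3-ITD it was -0.84 ± 0.153 (adjusted p = 0.104). The interaction was -1.66 ± 0.216, the smallest p among the members, with an adjusted p of 0.0717 that did not pass. Sex cannot be told apart from the interaction in these libraries. The call in Flt3-ITD was lost in 6 of 19 alternatives: without control 1, control 2, Flt3-ITD 1 or Flt3-ITD 2, and with spike-in scaling and in the normalized table (0.12 to 0.72), where the median of all genes shifts by -0.50 and -0.58.

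Hist2h2bb was at 20.3 and 27.0 FPKM (control), 23.7 and 29.1 (Smc3 del/+), 17.1 and 18.8 (Flt3-ITD) and 12.3 and 17.8 FPKM (combined). All Flt3-ITD carriers were below the others, and it fell by 0.58 ± 0.164 in averaged Flt3-ITD (limma adjusted p = 0.0356), a call lost in 8 of 18 alternatives, among them those without control 2, combined 1 or any 1 of the Smc3 del/+ and Flt3-ITD libraries (-0.65 to -0.43). Hist1h2bl, the H2B gene with the highest mean, was at 24.3 and 31.1, 37.1 and 24.8, 15.0 and 28.4, and 40.7 and 6.30 FPKM, with the combined libraries at both ends. Hist1h2bb was at 16.2 and 15.4, 17.9 and 28.4, 11.3 and 16.4, and 5.10 and 14.2 FPKM, and no comparison of either passed. Of 7 divergent pairs with both genes tested, 5 had the same sign in the combined group against control. There 53 of all 58 members were negative, so that a shared sign is frequent for any 2 members. Hist1h2ag and Hist1h2bj had values of -1.06 and -1.01, and Hist1h2ad and Hist1h2bf -1.91 and 0.07.

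**Figure D4:**
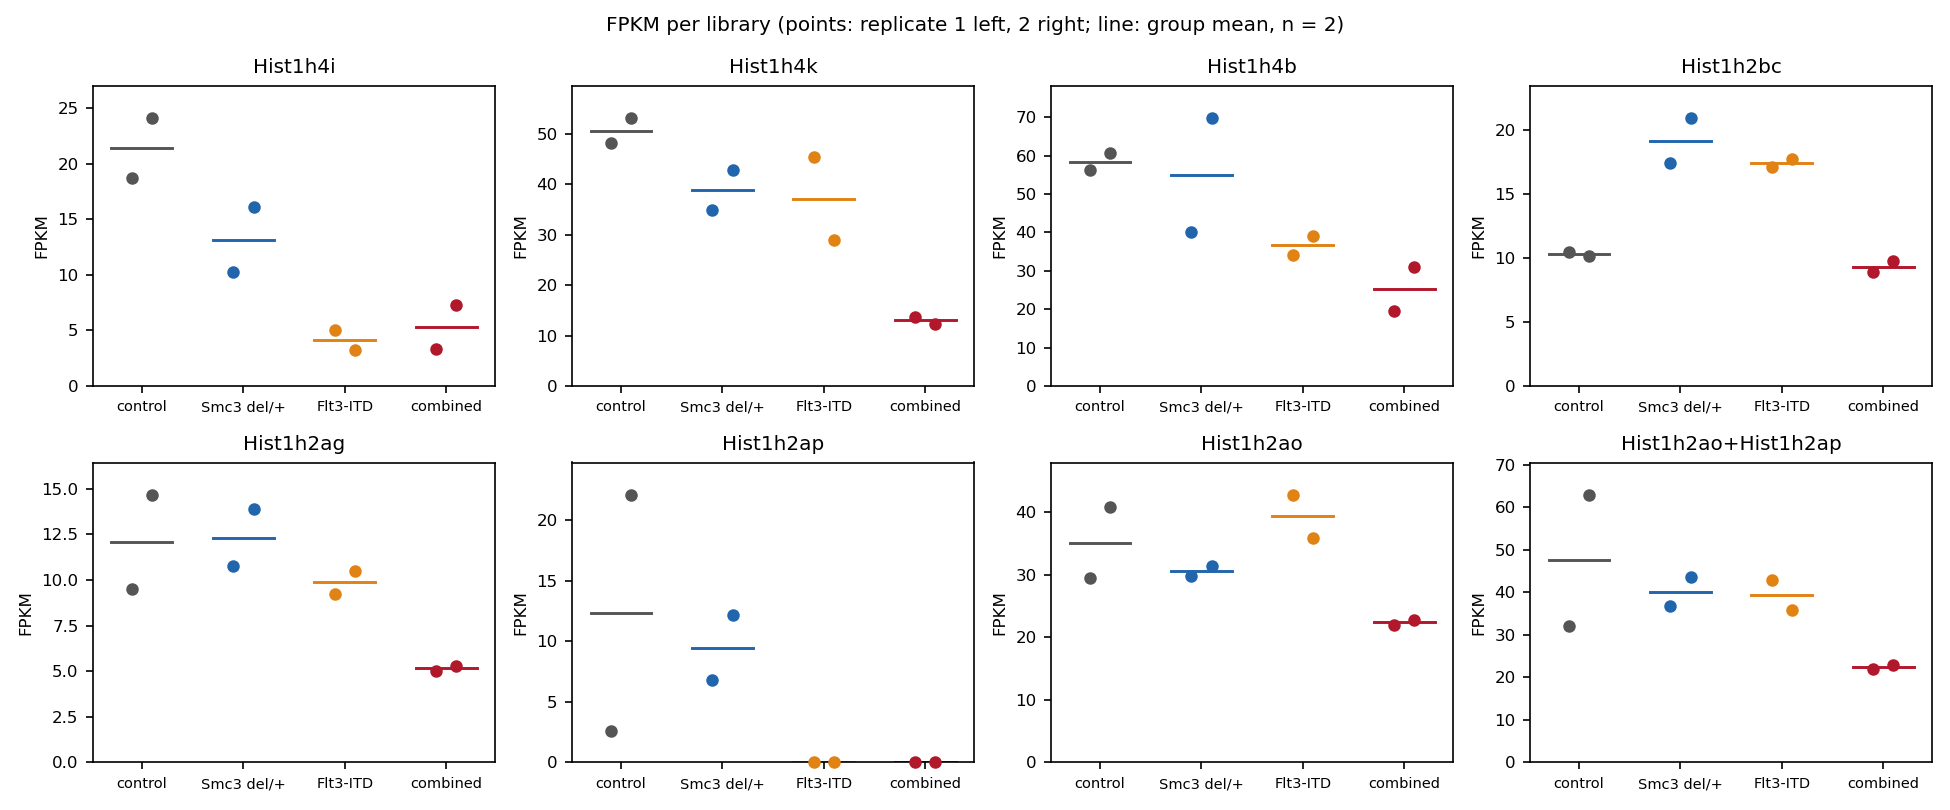
FPKM of 7 members and of the sum of an identical pair, with each library as a point and the group mean as a line (n = 2 per group, linear axes from 0). Hist1h4i, Hist1h4b and Hist1h4k are low in Flt3-ITD carriers or in the combined group, Hist1h2bc is high in Smc3 del/+ and Flt3-ITD, and the sum of Hist1h2ao and Hist1h2ap does not show the gap seen for Hist1h2ap alone.

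No H3 or H1 gene passed in any comparison. The H3 gene with the highest mean, Hist1h3b, was at 22.9 and 29.8 FPKM (control), 27.5 and 14.9 (Smc3 del/+), 27.4 and 21.5 (Flt3-ITD) and 26.8 and 8.35 FPKM (combined). Hist1h3e was at 13.7 and 34.9, 12.0 and 12.1, 12.0 and 20.9, and 14.8 and 12.7 FPKM, where control 2 stood alone above the other 7 libraries. Hist1h3c (11.6 to 28.0 FPKM) and Hist1h3i (9.49 to 22.4 FPKM) were likewise highest in control 2. Hist1h3f had the smallest p of the H3 genes in Flt3-ITD against control, -0.71 ± 0.285 (limma adjusted p = 0.125).

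Among the H1 genes, Hist1h1a had the highest mean over all libraries, at 14.1 and 23.5 FPKM (control), 11.5 and 18.7 (Smc3 del/+), 8.15 and 11.5 (Flt3-ITD) and 6.36 and 12.6 FPKM (combined). Its value in averaged Flt3-ITD was -0.75 ± 0.255 (limma adjusted p = 0.0645). Hist1h1e was at 4.75 and 4.70 FPKM in the combined group and between 5.61 and 7.73 in the others, with -0.54 ± 0.190 in the combined group against control (adjusted p = 0.112). Hist1h1b was at 1.97 to 8.97 FPKM, highest in control 2.

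The 3′ end letters were set beside these changes. In the combined group against control, the 10 tested members with AATAAA near the annotated end had a median of -0.16 and no call, and the 48 without had a median of -0.98 and all 10 calls. The 10 with AATAAA include low rows, such as Hist1h2ae, Hist3h2a and Hist1h2be with means of 1.47, 2.19 and 2.30 FPKM. Changes of low rows are understated on this scale. Among the abundant ones, Hist1h4a and Hist2h4, with means of 36.6 and 34.5 FPKM, had -3.04 and -0.15. The part of level in these medians was not tested. For the 4 tested members known to give polyadenylated messengers the median was -0.05. In Flt3-ITD against control the medians were 0.08 with AATAAA and -0.26 without. The 12 tested members with an octamer had a median of -0.82 in the combined group against control, the same as all 58 members. Members annotated to end soon after the coding sequence, such as Hist1h4k and Hist1h2ai with 3 bases, count as without AATAAA. For them the search covered mostly coding letters. The differences between these groups of members were not tested.

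Genes that make and handle histone messengers mostly did not pass the test. Slbp was at 132 and 128 FPKM (control), 126 and 127 (Smc3 del/+), 106 and 82.1 (Flt3-ITD) and 80.9 and 139 FPKM (combined), with no comparison passed. Npat was at 24.5 and 24.9, 27.5 and 23.7, 17.5 and 18.3, and 17.6 and 22.1 FPKM, lower in all 4 Flt3-ITD carriers, and fell by 0.40 ± 0.108 in averaged Flt3-ITD (limma adjusted p = 0.0297). Casp8ap2, a partner of Npat at the histone clusters, was at 25.0 to 35.7 FPKM with no comparison passed. Hinfp, the activator of H4 genes, was at 6.38 and 5.72 (control), 6.32 and 4.52 (Smc3 del/+), 6.26 and 5.73 (Flt3-ITD) and 3.98 and 3.43 FPKM (combined), with -0.59 ± 0.206 against control (adjusted p = 0.111).

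Of the 24 tested genes for histone messenger transcription and processing, 1 rose and 1 fell in Flt3-ITD against control, and 1 rose in the combined group against control. Among all genes, 8.51% rose and 9.5% fell in the first comparison, and 5.41% rose and 6.38% fell in the second. Lsm10, a subunit of the U7 particle that cuts histone messengers, rose by 0.65 ± 0.151 (limma adjusted p = 0.0265) and by 0.63 ± 0.151 (adjusted p = 0.0368) in these comparisons. It was at 6.93 and 6.75 FPKM (control), 8.56 and 9.52 (Smc3 del/+), 11.2 and 11.4 (Flt3-ITD) and 10.8 and 11.5 FPKM (combined). Of 25 histone chaperones and importers, 5 fell in Flt3-ITD against control, among them Chaf1b of the assembly factor CAF-1 (-0.79 ± 0.155, adjusted p = 0.0151), and 2 fell in the combined group. Of 11 tested replication-independent histone genes, H1f0 and H2afy2 rose in Flt3-ITD against control, by 1.10 ± 0.276 (adjusted p = 0.0334) and 1.44 ± 0.345 (adjusted p = 0.0287), and none fell.

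DNA replication genes give the S phase context. Of 49 tested, 17 fell in Flt3-ITD against control, 12 in the combined group against control and 31 in averaged Flt3-ITD, and none rose. Among all genes, 9.5%, 6.38% and 12.8% were lower in these comparisons. The replication genes summed to 3161 and 3087 FPKM (control), 3113 and 3219 (Smc3 del/+), 2334 and 2179 (Flt3-ITD) and 1999 and 2822 FPKM (combined). Combined 2 was thus closer to the controls than combined 1. Ccne1, the cyclin that starts S phase, was at 38.8 and 43.6 FPKM (control), 37.7 and 35.4 (Smc3 del/+), 11.1 and 11.8 (Flt3-ITD) and 14.3 and 19.4 FPKM (combined). It fell by 1.76 ± 0.170 in Flt3-ITD (limma adjusted p = 0.00166) and by 1.25 ± 0.170 in the combined group (adjusted p = 0.00718) against control. The median log2 fold change of the replication genes was -0.51 (Flt3-ITD) and -0.45 (combined) against the same controls. For the clustered histone genes these medians were -0.16 and -0.82. In the combined group against Flt3-ITD the replication genes had a median of 0.06 and no call, while the histone genes had -0.65 and no call. The difference between these lists was not tested.

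Markers of other marrow cells moved with Flt3-ITD, and fewer cells of a type cannot be told apart from less RNA per cell in these bulk samples. Summed erythroid markers were at 3025 to 3088 FPKM (control), 2694 to 2820 (Smc3 del/+), 268 to 480.1 (Flt3-ITD) and 466 to 907 FPKM (combined). Of 27 tested, 25 fell in Flt3-ITD against control and 24 in the combined group. Among all genes, 9.5% fell and 8.51% rose in Flt3-ITD against control, and 6.38% fell and 5.41% rose in the combined group. Summed B cell markers were at 120 to 298, 59.4 to 74.8, 6.90 to 13.9 and 9.46 to 13.5 FPKM in that order, and 12 of 13 fell in each of those comparisons. Summed neutrophil markers were at 81506 to 88802, 108259 to 112246, 165202 to 234305 and 147412 to 177817 FPKM. Of 13, 6 rose in Flt3-ITD and 4 in combined libraries, and none of the markers listed for these types was at 0 in every library. Of 14 tested megakaryocyte markers, 13 fell in Flt3-ITD and 12 in combined libraries, and of 10 granulocyte-monocyte progenitor markers 3 and 2 rose. Summed megakaryocyte markers were at 237 to 245, 85.3 to 95.8, 24.8 to 31.5 and 21.8 to 73.3 FPKM. In Smc3 del/+ against control no marker of these types was called. All 13 B cell and all 14 megakaryocyte markers were negative there, with medians of -1.35 and -1.05. The part of these shifts in the histone results was not tested.

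Single libraries decided much of the result. In these fits the lone library of a group is assumed to vary like the other groups. Without control 2 no member was called in the combined group against control, and the median was -0.53. In that fit 0.765% of all genes were called. The count was 3 without control 1 (0.792% of all genes), 3 without Smc3 del/+ 1 or 2 (4.74% and 4.76%) and 2 without Flt3-ITD 1 or 2 (8.16% and 8.18%). Without combined 1 it was 27, or 46.6% of members against 28.7% of all genes, and without combined 2 it was 16, or 27.6% against 31.6%. With both control 2 and combined 2 left out, an alternative chosen after seeing the data, 11 members were lower and 1 higher, or 20.7% against 20.3% of all genes, and the median was -0.08 against -0.00 for all genes. In Flt3-ITD against control the count was 1 without control 1 (2.24% of all genes called), 0 without control 2 (2.87%), 1 without Flt3-ITD 1 (4.08%) and 0 without Flt3-ITD 2 (7.47%). It was 5, or 8.62% of members, without either combined library, where 39% of all genes were called. The median there turned to 0.16 without control 2, and with both control 2 and combined 2 left out 7 members were higher and 2 lower, with 26.3% of all genes called in either direction. In the combined group against Flt3-ITD, members were called without combined 1, nearly all of them lower, and so were many other genes. Those calls rested on combined 2 as the only combined library, and the fit without combined 2 did not make them. The interaction called 16 members (27.6%) without combined 1 and 1 (1.72%) without combined 2, against 18.8% and 0.903% of all genes. In averaged Flt3-ITD the count was 3 without control 2, Smc3 del/+ 2 or Flt3-ITD 1 (11.6%, 13.3% and 14.1% of all genes) and 10, or 17.2%, without combined 2 (43.3% of all genes). Smc3 del/+ against control and the averaged Smc3 deletion had no call in any of these fits, but the median of the first turned to 0.10 without control 2.

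**Figure D5:**
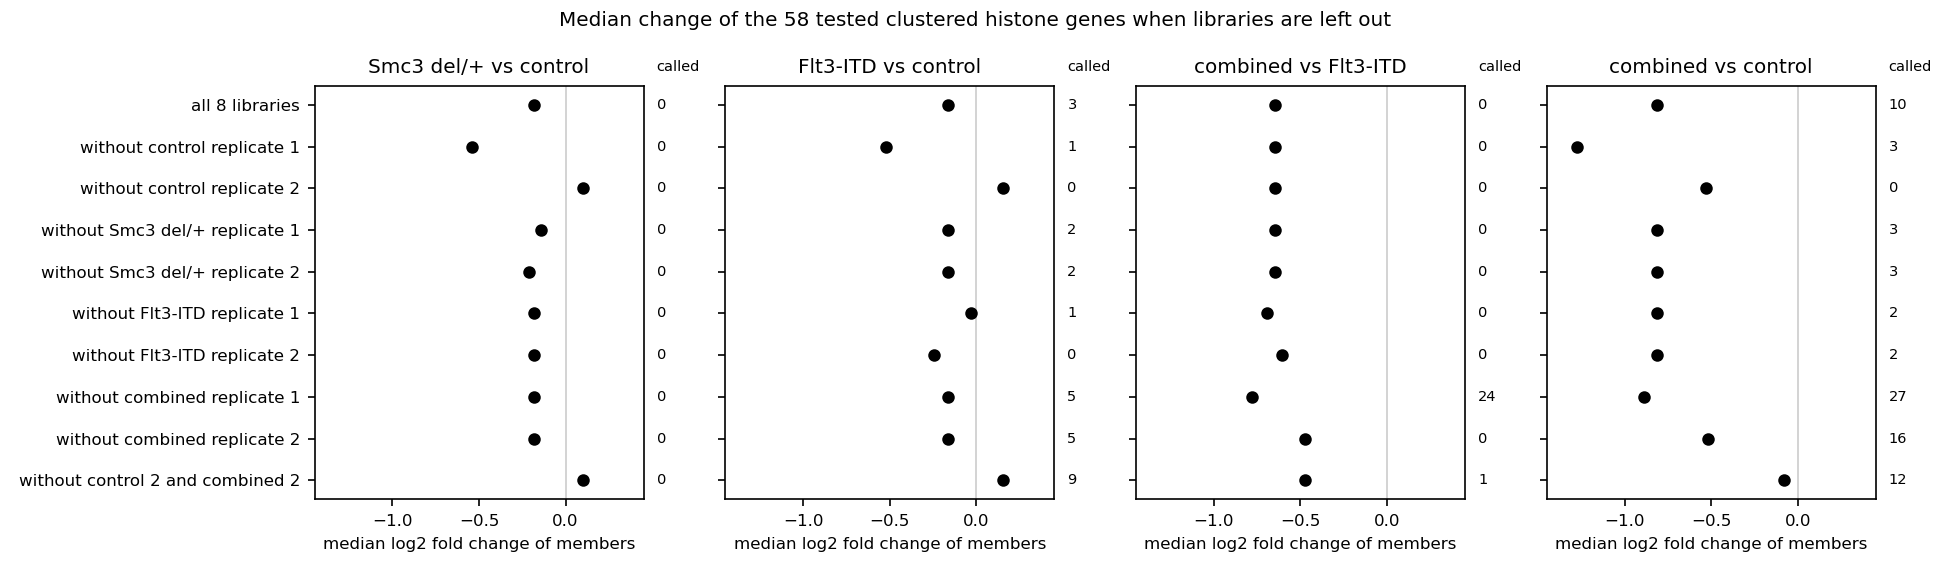
Median log2 fold change of the 58 tested members in 4 comparisons with all 8 libraries and with each library, or control 2 and combined 2 together, left out. Numbers at the right of each panel are members with a limma adjusted p under 0.05. For the combined group against control, the median moves from -0.82 to -0.08 when both libraries are left out, and the count is 0 without control 2.

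The scale of the values also mattered. When libraries were brought to a common spike-in total, the median of all genes in the combined group against control was -0.64 and that of the members -1.44, with 41 members lower and none higher, or 70.7% against 43.6% of all genes lower. In the table the authors normalized, these values were -0.67 and -1.46, with 43 members lower, or 74.1% against 53.1% of all genes lower. In Flt3-ITD against control, the split of calls changed from 1 higher and 2 lower to 0 higher and 10 lower with spike-in scaling, and to 0 and 14 in the normalized table. That is 17.2% and 24.1% of members, fewer than the 31.2% and 43.2% of all genes called lower there. The medians there were -0.66 and -0.76 for the members against -0.50 and -0.58 for all genes. In each of these comparisons the median of the members was below that of all genes on every scale used.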

How the data were processed

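RNA of c-Kit-positive bone marrow cells from 8 individual mice, 2 per genotype group, was sequenced. The authors deposited FPKM per gene in a raw and a normalized table. Per the submitters' processing notes, TopHat, Cufflinks 2.0.0 and the mm9 build were used. No source used here gives the annotation, the strand setting or the division of fragments among near-identical genes. The raw table, with 23293 mouse genes and 92 spike-in rows, was the main source, and its FPKM were tested as log2(FPKM + 1).

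The 10854 genes whose mean reached 1 FPKM entered limma 3.58.1 (R 4.3.3), in a model of 4 group means with a variance trend, and in an additive model for averaged effects. Benjamini-Hochberg adjustment ran over all of them, with a threshold of 0.05. For single values an exact permutation test of 2 libraries against 2 could reach no p below 0.333. The averaged effects set 4 libraries against 4, where that limit does not hold. The files state no depth and no source used here says what a step stands for, so that no counting interval was computed. The procedure was tested on simulated data.

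The members and gene lists were chosen with earlier results of these data known. Named members are all that passed in a comparison (at most 10 per direction), in each type the 4 with the highest mean and the one with the smallest p in Flt3-ITD against control, all on the poly(A) and testis lists, up to 4 with the smallest p of each other list, and Slbp, Npat, Casp8ap2, Smc3, Flt3 and Kit. Stem-loops were read from GENCODE M21 transcripts and promoters from RefSeq (GRCm38.p6), matched by symbol or synonym, with pandas 2.3.3 and numpy 2.4.6. Since these are not the build of the files, no coordinates were joined. Alternatives changed the pseudocount (0.1), the filter (none, or 5 FPKM), the table, the libraries in the fit, the replicate block, the variance trend and the scaling, and left out each library.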

Additional observations from a re-analysis of the deposited data

How the results depend on the processing

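In Flt3-ITD against control, where 3 members were called, 14 were called in the table the authors normalized (44.2% of all genes called), 10 with spike-in scaling (32.2%), 7 with only the groups compared in the fit (33.2%), and 9 without control 2 and combined 2, chosen after seeing the data (26.3%). Fits that left out single libraries are described above, beside shares of all genes. In the combined group against control, where 10 were called, the counts were 43 in the normalized table (54.2% of all genes), 41 with spike-in scaling (44.7%), 6 without a variance trend (10.1%), 2 of 66 without a filter on low values (7.31%) and 1 with only the groups compared (0.378%), and 0 to 27 when single libraries were left out. In the combined group against Flt3-ITD, with 0 called, the normalized table and spike-in scaling gave 1 each (0.308% and 0.394% of all genes). The interaction ranged from 0 to 16 when single libraries were left out. Averaged Flt3-ITD, with 6 called, gave 24 in the normalized table and 24 with spike-in scaling. Those are 41.4% of members against 45.8% and 40.4% of all genes. The causes were not tested. Hist1h2bc changed sign in averaged effects near 0: for the Smc3 deletion, -0.00 became -0.22 to 0.19 over single left-out libraries, with 0.15 and 0.17 without Flt3-ITD 1 and 2, and 0.19 and 0.14 without combined 1 and 2. For averaged Flt3-ITD, -0.13 became -0.31 to 0.086, with 0.086 without Smc3 del/+ 2, and 0.06 and 0.01 without combined 1 and 2. Over 30 results of single genes and 555 alternative values, 431 kept direction and side of the threshold, 107 lost the threshold, 10 passed it newly and 7 changed sign. Summing the 4 identical pairs, also chosen after seeing the data, gave 8 of 55 members in the combined group against control (14.5% against 11.8% of all genes). Replicate numbers did not pair the samples (correlations of deviations -0.11 to 0.02). A replicate block gave 4, 9 and 7 called members in Flt3-ITD against control, the combined group against control and averaged Flt3-ITD, and 0 in the other comparisons. Those are 6.9%, 15.5% and 12.1% of members against 15.8%, 9.32% and 21.3% of all genes. The files used here state no depth, and the part of depth in these counts was not tested.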
